A study of Mus musculus with 9 samples.

Results

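The Sox family encodes transcription factors with an SRY-type HMG box, and 10 of its genes were followed in progenitors of the mouse brain. They were chosen by subfamily: the SoxB1 genes Sox1, Sox2 and Sox3, the SoxB2 gene Sox21, the SoxC genes Sox4 and Sox11, the SoxD genes Sox5 and Sox6, and the SoxE genes Sox8 and Sox9. Sox10 (SoxE), Sox12 (SoxC) and Sox13 (SoxD) were not members. All 10 were found among the 18329 genes of the deposited table, and all 10 were among the 16143 genes kept by a filter of at least 1 CPM in at least 3 libraries. CPM values are read counts scaled to a common library total.

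Total RNA was sequenced from neuroglial progenitors of the TVZ, the germinal zone along the third ventricle, and the study's design text asks how such sorted progenitors differ at the molecular level. All cells came from untreated Nestin-CFPnuc mice on a C57/BL6 background at postnatal day 1, in which the Nestin promoter drives a cyan fluorescent protein (CFP). Sorting used CFP and CD133, the product of Prom1 on the cell surface, and gave CD133+Nestin+, Nestin+ and CD133+ populations of 3 libraries each. Nestin+ therefore means activity of the reporter, and whether single-marker cells were negative for the second marker is not in the labels. Each library carries a sort number from 1 to 3, which equals its passage number, and values below are given in the order of these numbers. The labels do not tie the libraries to separate animals or cultures, so every p-value rests on the spread between these libraries, and that spread may be technical only.

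The libraries held about 29000000 to 34900000 reads, as judged from the value of 1 read in the table (0.0286 to 0.0344 CPM). The genes listed took up 65.9% to 87.6% of each library's CPM total. Prom1 averaged 147 ± 32.7 CPM in CD133+Nestin+, 51.0 ± 10.3 CPM in Nestin+ and 169 ± 20.0 CPM in CD133+ cells, and Nes averaged 198 ± 22.6, 173 ± 20.0 and 51.2 ± 10.1 CPM in the same order (SD, n = 3 each). Library 2 of the CD133+Nestin+ cells stood apart, at 108 on the second principal component (32.5% of the variance), where the other 8 libraries lay between -57.1 and 19.3. Results that rest on it are given with and without it, except for the tests of the sort number.

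SOX proteins bind a short core motif in the minor groove of DNA through the HMG box, bend the helix and usually act with partner factors. In the developing brain SoxB1 factors keep neural progenitors undifferentiated, SoxC factors act later, when young neurons switch on neuronal genes, and SoxE factors act in the switch to glia and in oligodendrocyte precursors, where SoxD proteins modulate them. In bulk RNA a lower level can come from fewer cells of a type or from less RNA per cell, and these cannot be told apart.

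Within each population, Sox9, which directs progenitors towards glia, had the highest mean level of the family when levels were divided by gene length (CPM per kilobase of merged exons). Its length-scaled level averaged 154 ± 58.9 in CD133+Nestin+, 106 ± 33.2 in Nestin+ and 66.2 ± 10.7 CPM per kilobase in CD133+ cells (SD, n = 3 each), and its range overlapped that of Sox11 in Nestin+ cells alone. Sox3 was lowest in all 3 populations, at 1.27 ± 0.44, 2.52 ± 0.639 and 1.35 ± 0.671 CPM per kilobase in the same order, and its range met that of no other member. Between these ends, Sox11 came next by mean length-scaled level, followed by Sox2, in CD133+Nestin+ and Nestin+ cells, whereas Sox2 preceded Sox11 in CD133+ cells. In each population the ranges of Sox11 and Sox2 overlapped, so their order was not separated by the spread. Sox8 and then Sox4 came after them in every population, and Sox1, Sox21, Sox5 and Sox6 followed with mean levels between 3.92 and 8.46 CPM per kilobase, each overlapping the next in its group's order. The place of Sox5 and Sox6 may depend on the divisor, which merges the exons of all annotated transcripts (14376 and 14832 bases). Before division by length, the mean CPM of Sox5 and Sox6 was above that of Sox8 and Sox4 in every population.

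**Figure D1:**
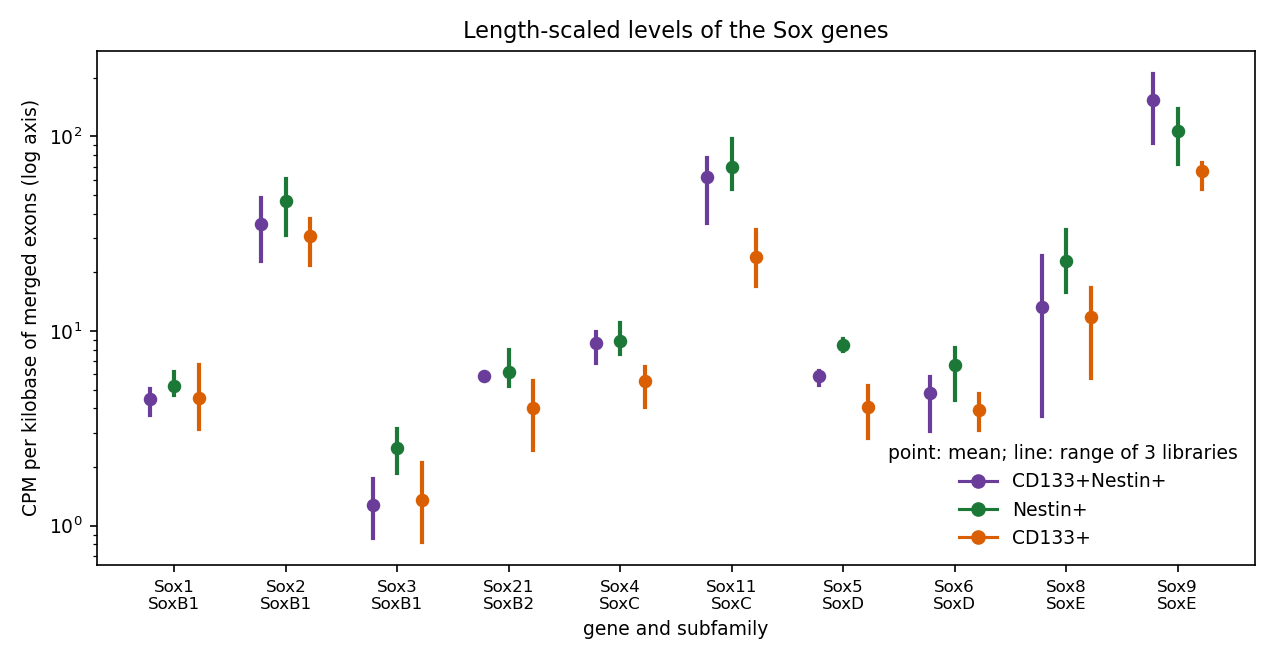
Length-scaled levels of the 10 Sox genes in CPM per kilobase of merged GENCODE exons, on a log axis; points are means and lines the range of 3 libraries, from left to right CD133+Nestin+, Nestin+ and CD133+. Sox9 has the highest mean in every population (154, 106 and 66.2) and Sox3 the lowest (1.27, 2.52 and 1.35).

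Across the 3 populations the family was read out in pairwise comparisons, as differences of mean log2(CPM + 1), a scale that understates the change of genes with low levels. Nestin+ cells stood above CD133+ cells in the estimate of all 10 members, with a median difference of 0.69 (log2) over the members and -0.02 over all genes. By limma with Benjamini-Hochberg adjustment over all genes, 2 members, Sox11 and Sox5, were higher in Nestin+ than in CD133+ cells. In this comparison 11.9% of genes were called, and 2.45% were called higher. With the sort number as a block and without library 2 of CD133+Nestin+, an alternative chosen after seeing the data, 8 members were called (all but Sox1 and Sox2), when 30.4% of genes were called. Of the 10 members, 8 were higher in Nestin+ in all 3 same-numbered pairs, the exceptions being Sox1 and Sox2, and the background of genes higher in all 3 pairs was 26.0%. Median centring and quantile normalization moved the median of all genes in this comparison up by 0.14 and 0.15 (log2), and no member changed sign under them; they moved the split of called genes to 587 higher and 1300 lower and to 696 and 1370, against 395 higher and 1520 lower.

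**Figure D2:**
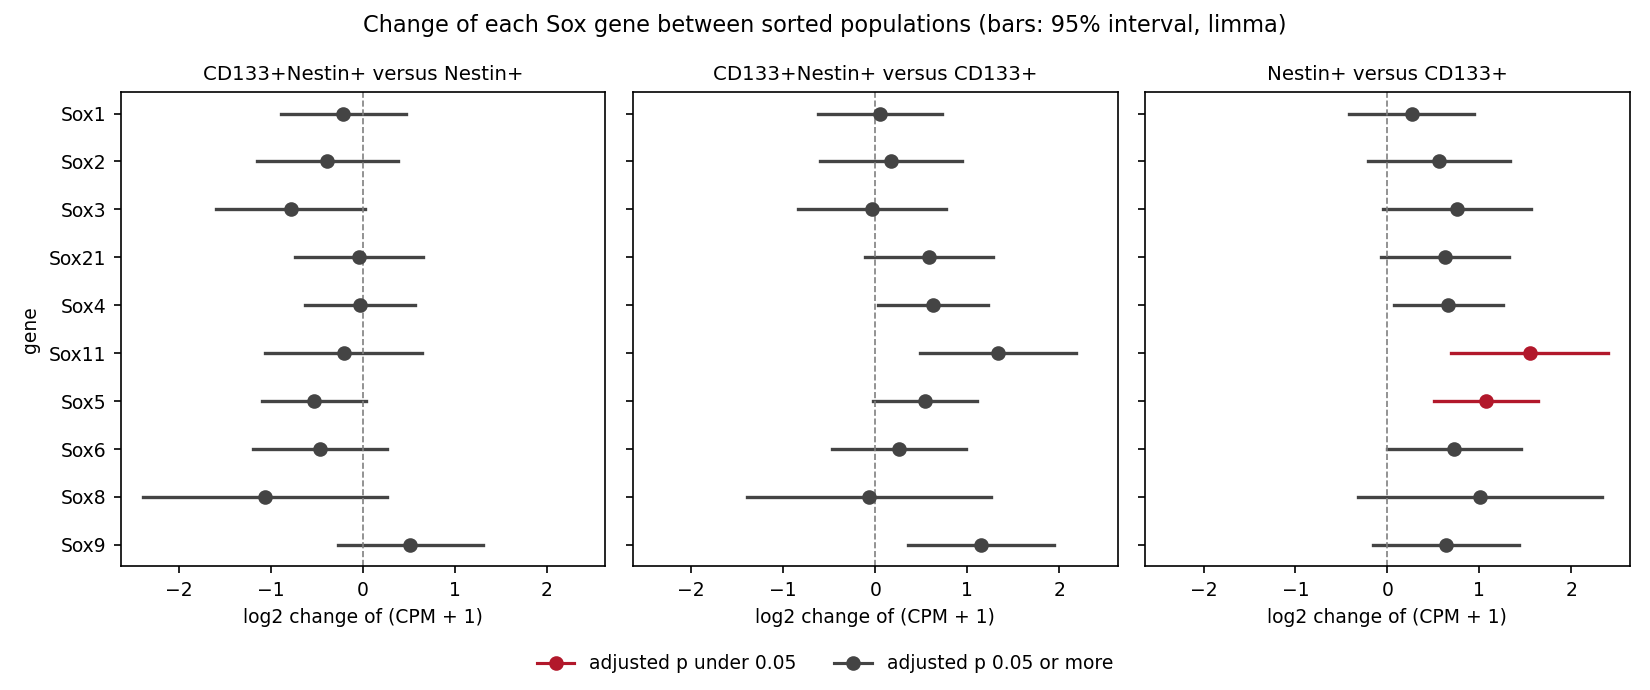
Differences of each Sox gene between populations on the log2(CPM + 1) scale, with 95% intervals from limma; the first population named in each panel title is the one above the line at 0 when the difference is positive. Sox11 and Sox5 in Nestin+ versus CD133+ cells, in red, are the 2 differences with an adjusted p under 0.05.

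The promoter sequences of Sox11 and Sox5, the 2 members that passed the test, are shown first so that their base composition can be compared. They are the 250 bases before the transcript start in RefSeq on GRCm38.p6, read 5′ to 3′ on the minus strand, at chr12:27342719-27342968 for Sox11 and chr6:143947107-143947356 for Sox5. Capitals mark the SOX core (ACAAT or, on the other strand, ATTGT), the CCAAT box (CCAAT or ATTGG) and the GC box (GGGCGG or CCGCCC), motifs that do not overlap here.
Sox11: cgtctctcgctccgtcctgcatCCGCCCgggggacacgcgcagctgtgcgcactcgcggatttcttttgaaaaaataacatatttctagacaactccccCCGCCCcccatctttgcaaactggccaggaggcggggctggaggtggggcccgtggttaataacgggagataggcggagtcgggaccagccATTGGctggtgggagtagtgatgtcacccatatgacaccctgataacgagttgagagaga
Sox5: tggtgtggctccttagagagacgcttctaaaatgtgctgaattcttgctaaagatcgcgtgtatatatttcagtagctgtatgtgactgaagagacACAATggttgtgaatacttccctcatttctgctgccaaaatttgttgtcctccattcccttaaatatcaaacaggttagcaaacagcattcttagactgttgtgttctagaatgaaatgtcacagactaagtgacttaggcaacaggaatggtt
The Sox11 window had 58.0% G and C, 17 CpG dinucleotides, 2 GC boxes, 1 CCAAT box and no SOX core, and the Sox5 window had 39.6% G and C, 3 CpG dinucleotides and 1 SOX core, with neither box. Among 32851 RefSeq promoter windows of this length, 27.7% held a SOX core, 33.8% a CCAAT box and 32.7% a GC box, and of the 13 windows of 8 members, 4 held a SOX core, 6 a CCAAT box and 5 a GC box. The Sox5 window lies inside the annotated span of that long gene (chr6:143828425-144781977, minus strand, 45 annotated exons), so it belongs to a start within the gene. A match of letters is a description and not a site.

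Sox11 is a SoxC factor of immature neurons and their progenitors, encoded by a single exon at chr12:27334264-27342574 (minus strand). It measured 297, 600 and 642 CPM in CD133+Nestin+, 448, 492 and 806 CPM in Nestin+ and 182, 141 and 275 CPM in CD133+ cells. All 6 libraries with Nestin in their label lay above all 3 CD133+ libraries, while CD133+Nestin+ and Nestin+ cells overlapped. Sox11 was higher in Nestin+ than in CD133+ cells by 1.54 ± 0.39 (log2 ± SE; adjusted p = 0.024, limma), with pair differences of 1.29, 1.79 and 1.55. The call was lost without library 2 of Nestin+ (adjusted p = 0.0585), 3 of Nestin+ (0.102), 1 of CD133+ (0.0662) or 2 of CD133+ (0.12).

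In CD133+Nestin+ versus CD133+ cells the Sox11 difference was 1.33 ± 0.39 with an adjusted p of 0.126 by limma. With the sort number as a block in the fit, Sox11 was higher in CD133+Nestin+ cells (1.33 ± 0.25, adjusted p = 0.015), the only member called there. With the block 4.81% of genes were called in this comparison and 1.12% were called higher, against 2.42% called without it. It also passed without the block when library 1 of the CD133+Nestin+ cells was left out (1.69, adjusted p = 0.0325). Without library 2 of CD133+Nestin+ the Sox11 difference was 1.18 (adjusted p = 0.256, limma). With the block and without that library it was 1.02 (adjusted p = 0.015). For CD133+Nestin+ versus Nestin+ cells the Sox11 difference was -0.21, with a 95% interval of -1.06 to 0.64. Over all 3 populations Sox11 was the only member called in limma's F test (adjusted p = 0.0459; 9.5% of genes were called), a call held in 2 of the 9 fits that left out a library, with adjusted p from 0.0109 to 0.226.

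Sox4, the other SoxC member (chr13:28948919-28953713, minus strand), acts with Sox11 in young neurons. It measured 32.8, 47.2 and 44.2 CPM in CD133+Nestin+, 36.5, 38.0 and 52.7 CPM in Nestin+ and 28.7, 19.6 and 31.3 CPM in CD133+ cells. As with Sox11, every library of CD133+Nestin+ and Nestin+ cells lay above every CD133+ library. The differences from CD133+ cells were 0.63 ± 0.27 for CD133+Nestin+ (adjusted p = 0.359) and 0.66 ± 0.27 for Nestin+ cells (adjusted p = 0.163), neither of which passed in limma. With the block and without library 2 of CD133+Nestin+ the Nestin+ minus CD133+ difference of 0.66 ± 0.17 passed (adjusted p = 0.0156). The F test over the 3 populations passed as well (adjusted p = 0.0436). That fit called 4900 genes in Nestin+ versus CD133+ cells and 4119 in the F test. With all libraries and no block these counts were 1915 and 1534. A lincRNA lies on the strand opposite Sox4, and no source states whether counting used strand.

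When genes were ranked by how closely their profile over the 9 libraries followed that of Sox11, Efna5, a membrane-bound ephrin ligand, and Bcl2, an inhibitor of cell death, came first. The root mean square difference between centred log2(CPM + 1) profiles was 0.18 for Efna5 and 0.21 for Bcl2, against a median of 0.91 over 9365 genes. Sox4 ranked 93 at 0.44 and Sox9 ranked 138 at 0.47, whereas Sox8 ranked 7480 at 1.17. The 9 libraries share their groups, sort numbers and depth with these genes, so the ranking is a description.

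**Figure D3:**
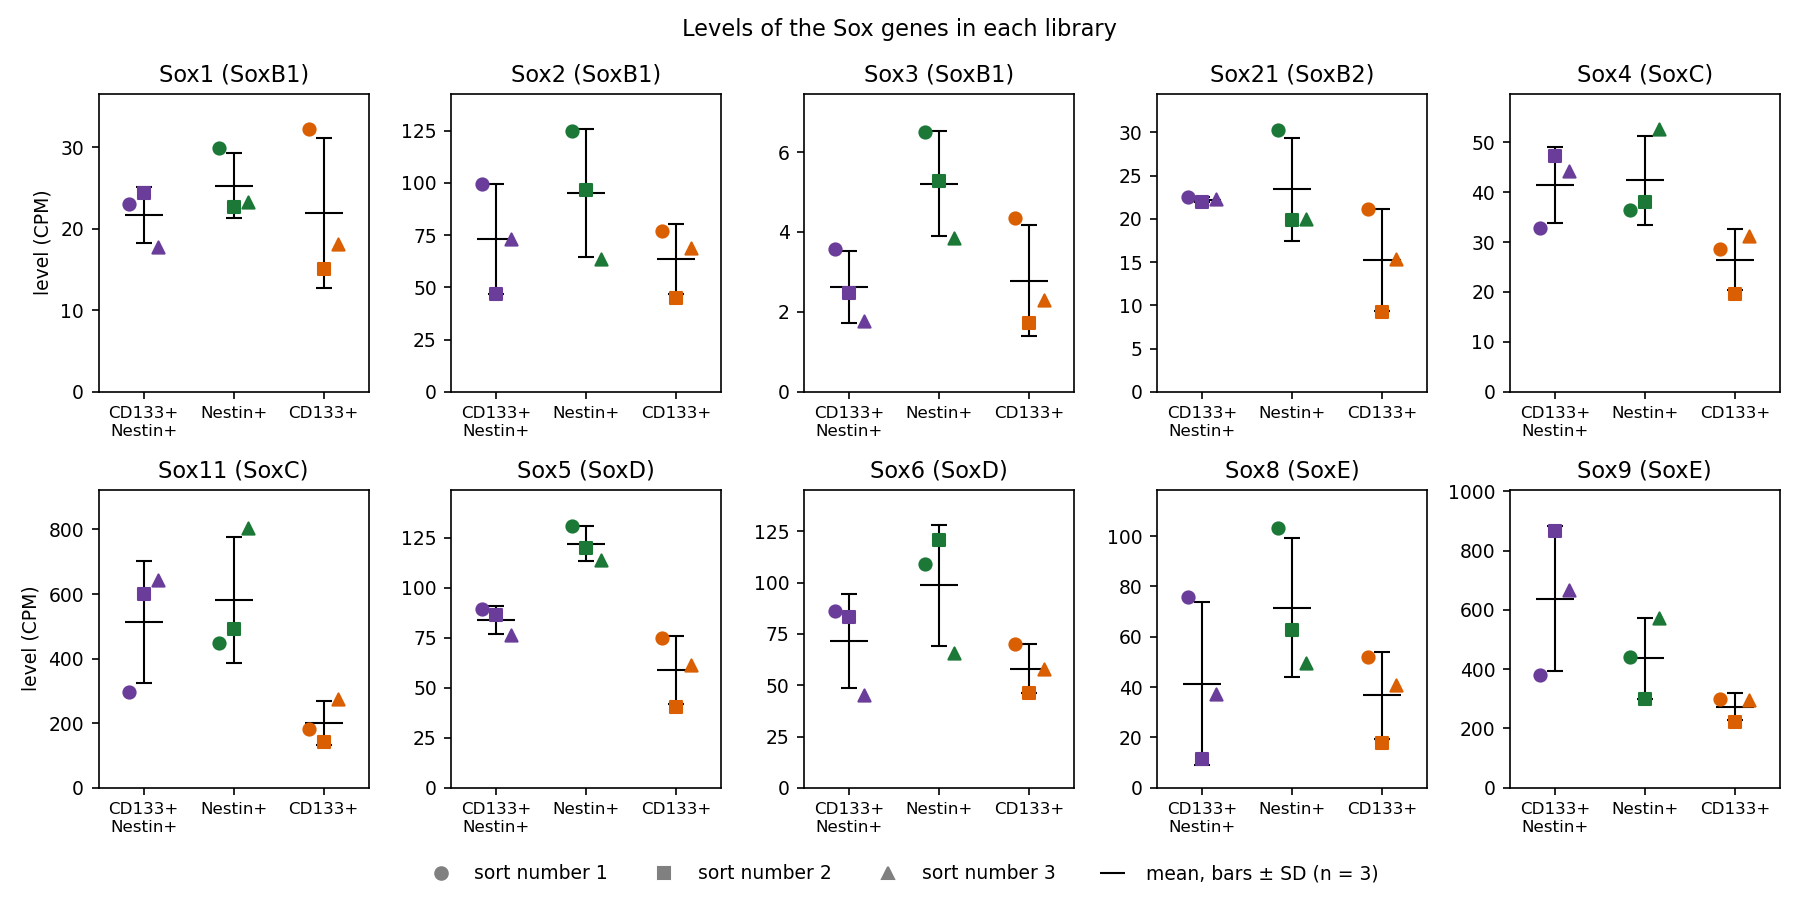
Levels of the 10 Sox genes in CPM in every library, with the CD133+Nestin+, Nestin+ and CD133+ populations from left to right; symbols give the sort number, and black bars the mean ± SD of 3 libraries. All Sox11, Sox4 and Sox5 values in Nestin+ cells lie above those in CD133+ cells.

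Sox5 is a SoxD factor, which has no activation domain of its own and modulates other Sox proteins. It measured 89.5, 86.2 and 76.2 CPM in CD133+Nestin+, 131, 120 and 114 CPM in Nestin+ and 74.8, 40.6 and 61.2 CPM in CD133+ cells. The 3 populations did not overlap at any point, with Nestin+ on top and CD133+Nestin+ between, and no other member was separated in this way. In all, 3.19% of genes had 3 populations of which no pair overlapped. Sox5 was higher in Nestin+ than in CD133+ cells by 1.08 ± 0.26 (adjusted p = 0.0189, limma). The call was lost without library 1 of Nestin+ (adjusted p = 0.0677), 2 of Nestin+ (0.0643), 2 of CD133+ (0.0792) or 3 of CD133+ (0.0549).

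The intermediate level of Sox5 in CD133+Nestin+ cells gave differences of -0.53 (95% interval -1.10 to 0.03) from Nestin+ and 0.55 (95% interval -0.02 to 1.11) from CD133+ cells. Neither passed in limma (adjusted p = 0.421 and 0.419). The same-numbered differences from Nestin+ cells were -0.55, -0.48 and -0.57, which were close to one another, and those from CD133+ cells were 0.26, 1.07 and 0.31. In the F test over 3 populations Sox5 had an adjusted p of 0.0541, and with the sort number as a block 0.0167 (16.5% of genes called with the block). Several antisense genes overlap Sox5, and Sox5os1 among them averaged 0.979 ± 0.251, 1.34 ± 0.399 and 0.508 ± 0.235 CPM in CD133+Nestin+, Nestin+ and CD133+ cells (SD, n = 3 each).

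Sox6, the other SoxD member (chr7:115470872-116038796, minus strand), restrains the maturation of oligodendrocyte precursors. Its level ran from 45.2 to 86.3 CPM in CD133+Nestin+, from 65.5 to 121 CPM in Nestin+ and from 46.1 to 70.3 CPM in CD133+ cells, and the populations overlapped. Like Sox5 it was lower in CD133+Nestin+ than in Nestin+ cells in all 3 same-numbered pairs. The Nestin+ minus CD133+ difference was 0.73 ± 0.33, with a 95% interval of -0.001 to 1.45 and an adjusted p of 0.218 by limma. Antisense genes overlap Sox6 as well.

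Sox9 and Sox8, the SoxE members, differed from each other in pattern. Sox9 (chr11:112782224-112787760, plus strand) measured 381, 865 and 667 CPM in CD133+Nestin+, 441, 298 and 572 CPM in Nestin+ and 301, 223 and 297 CPM in CD133+ cells. Every CD133+Nestin+ library exceeded every CD133+ library. In CD133+Nestin+ versus Nestin+ cells Sox9 was the only member whose estimate was above 0 with all 9 libraries, at 0.51 (95% interval -0.28 to 1.31), with pair differences of -0.21, 1.53 and 0.22. Without library 2 of CD133+Nestin+ that estimate was 0.26 ± 0.36. The CD133+Nestin+ minus CD133+ difference was 1.15 ± 0.36, which did not pass in limma (adjusted p = 0.165). Without library 1 of CD133+Nestin+ it was 1.48 and passed (adjusted p = 0.0445), and without library 2, the library that stood apart, it was 0.89 ± 0.36 (adjusted p = 0.339). With the block and without library 2 the Nestin+ minus CD133+ difference of 0.64 passed in limma (adjusted p = 0.0267). The F test over the 3 populations passed there too (adjusted p = 0.0412). As for Sox4, the background of that fit was 4900 genes called in Nestin+ versus CD133+ cells and 4119 in the F test.

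Sox8 (chr17:25565892-25570686, minus strand), which acts with Sox10 in the oligodendrocyte lineage, measured 75.8, 11.4 and 37.1 CPM in CD133+Nestin+, 103, 62.8 and 49.4 CPM in Nestin+ and 51.8, 17.8 and 40.7 CPM in CD133+ cells. Its spread of 9.05 times between the lowest and the highest library was the widest of the 10 members. Library 2 of the CD133+Nestin+ cells held the lowest Sox8 and the highest Sox9 value of all 9 libraries. No Sox8 difference passed in limma without the block: it was -1.07 ± 0.60 in CD133+Nestin+ versus Nestin+ cells (-0.36 ± 0.48 without that library) and -0.07 ± 0.60 in CD133+Nestin+ versus CD133+ cells (0.64 ± 0.48 without it). Nestin+ minus CD133+ was 1.00, with a 95% interval of -0.33 to 2.33. With the block and without library 2 of CD133+Nestin+ this difference passed (1.00 ± 0.25, adjusted p = 0.0125), as did 4900 genes in all. The F test over the 3 populations passed as well (adjusted p = 0.0354), as it did for 4119 genes in all. An antisense gene overlaps Sox8.

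Sox2, the SoxB1 factor most used to mark neural stem cells (chr3:34650405-34652461, plus strand), measured 99.7, 46.8 and 73.3 CPM in CD133+Nestin+, 125, 96.8 and 63.8 CPM in Nestin+ and 77.1, 44.9 and 69.0 CPM in CD133+ cells. The 3 populations overlapped, and no Sox2 difference passed in limma. The intervals allowed a difference of -1.16 to 0.39 for CD133+Nestin+ versus Nestin+, -0.60 to 0.94 for CD133+Nestin+ versus CD133+ and -0.21 to 1.33 for Nestin+ versus CD133+ cells (log2). Sox2 lies within Sox2ot on the same strand, a noncoding gene that averaged 71.9 ± 13.4, 86.9 ± 12.1 and 69.4 ± 11.1 CPM in CD133+Nestin+, Nestin+ and CD133+ cells (SD, n = 3 each), so reads could be split between them.

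Sox1, a SoxB1 factor of neural progenitors, ranged from 17.8 to 24.4 CPM in CD133+Nestin+, from 22.7 to 29.9 CPM in Nestin+ and from 15.1 to 32.3 CPM in CD133+ cells. It lies at chr8:12395295-12400126 (plus strand) and overlaps Sox1ot on the same strand. Its populations overlapped throughout, and its largest difference, 0.26 for Nestin+ versus CD133+, had a 95% interval of -0.41 to 0.94.

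Sox3, an X-linked SoxB1 gene needed for normal development of the hypothalamus and pituitary, lies at chrX:60891366-60893430 (minus strand). It measured 3.58, 2.48 and 1.78 CPM in CD133+Nestin+, 6.49, 5.28 and 3.85 CPM in Nestin+ and 4.35, 1.71 and 2.29 CPM in CD133+ cells. Every CD133+Nestin+ value lay below every Nestin+ value, and the difference was -0.79 ± 0.37 (95% interval -1.59 to 0.02; adjusted p = 0.397, limma). Its lowest value rested on about 52 reads.

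Sox21, a SoxB2 factor that counteracts SoxB1 proteins (chr14:118233232-118237030, minus strand), measured 22.5, 21.9 and 22.3 CPM in CD133+Nestin+, 30.3, 19.9 and 20.0 CPM in Nestin+ and 21.1, 9.28 and 15.4 CPM in CD133+ cells. Its CD133+Nestin+ libraries lay within 1.28% (SD as a share of the mean), and all of them were above the CD133+ libraries. The difference of 0.58 ± 0.32 from CD133+ cells had an adjusted p of 0.497 by limma. A lincRNA lies on the opposite strand.

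Set against both single-marker populations, the CD133+Nestin+ cells thus gave no member past the threshold in limma with all 9 libraries and no block. Without library 1 of CD133+Nestin+, Sox11 and Sox9 passed against CD133+ cells, when 472 genes were called there, against 390 with all 9 libraries. Sox11 and Sox9 each passed in that comparison in only 1 of the 9 fits that left out a library. Against Nestin+ cells 0 of 10 members were called, and 0 had an unadjusted p under 0.05, while 3.13% of genes were called and 13.2% had an unadjusted p under 0.05. There 9 of the 10 estimates were below 0, with a member median of -0.30 and a median of -0.04 over all genes. The signs of Sox4, Sox11 and Sox21 were not stable: Sox11 and Sox4 were above 0 without library 1 of CD133+Nestin+ (0.14 and 0.12) or 3 of Nestin+ (0.05 and 0.13), Sox21 without library 1 of Nestin+ (0.15), and Sox21 and Sox4 with sort numbers 2 and 3 alone (0.14 and 0.03). Sox3 and Sox5 were the 2 members whose groups did not overlap, both lower, in a comparison where 6.21% of genes had groups that did not overlap in that direction. Sox3, Sox5, Sox6 and Sox8 were lower in all 3 same-numbered pairs, as were 20.4% of genes.

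Against CD133+ cells 0 of 10 members were called in CD133+Nestin+ cells, 3 (Sox4, Sox11 and Sox9) had an unadjusted p under 0.05, where 2.42% of genes were called and 12.6% had an unadjusted p under 0.05. The member median was 0.40 and that of all genes -0.06. Here 5 members, Sox21, Sox4, Sox11, Sox5 and Sox9, had groups that did not overlap with CD133+Nestin+ higher, in a comparison with a background of 6.56% of genes. These 5 and Sox2 were higher in all 3 same-numbered pairs, 6 of 10 members against 18.9% of genes. In Nestin+ versus CD133+ cells 3 members, Sox4, Sox11 and Sox5, had groups that did not overlap with Nestin+ higher, where the background was 11.8%. The 3 comparisons share libraries, so these counts are not independent of one another.

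The authors' deposited table gave a false discovery rate under 0.05 for the same 2 members in Nestin+ over CD133+ cells, Sox11 (ratio of means 2.92, false discovery rate 0.0337) and Sox5 (ratio 2.07, 0.0225). In the authors' deposited table the CD133+Nestin+ population is the denominator of its 2 other ratios, the reverse of the direction used here, and no member passed in them, with a lowest false discovery rate of 0.431 for Nestin+ over CD133+Nestin+ and 0.185 for CD133+ over CD133+Nestin+.

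Some members were also ordered by the sort number. Sox2, Sox3, Sox21, Sox5 and Sox8 were each highest in library 1 within all 3 populations, 5 of 10 members against 17.7% of all genes, whereas Sox4 and Sox11 were lowest in library 1 of CD133+Nestin+ and of Nestin+ cells. With population and number in the same limma fit, Sox8 was higher in number 1 than in the mean of numbers 2 and 3 by 1.20 ± 0.31 (adjusted p = 0.0356), a comparison in which 13.4% of genes were called and 5.58% were higher. No other member passed, and the differences of Sox2 and Sox11 were 0.63 ± 0.22 (adjusted p = 0.084) and -0.56 ± 0.21 (adjusted p = 0.111). The sort number fits include library 2 of CD133+Nestin+, which held the lowest Sox8 value (11.4 CPM). No sort number result is given without that library.

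In the F test over the 3 numbers 0 of 10 members were called by limma and 3 (Sox2, Sox11 and Sox8) had an unadjusted p under 0.05, while 8.77% of genes were called and 30.6% had an unadjusted p under 0.05, a share close to that of the members. Sox8 had the lowest adjusted p, 0.0514, and 0.0351 after median centring. The listed genes took up 87.3% to 87.6% of the CPM total in the libraries numbered 1 and 65.9% to 81.0% in the others. After median centring the Sox8 difference was 1.28 (adjusted p = 0.0197) and that of Sox2 0.70 (adjusted p = 0.0448). The share of all genes called in the sort number tests after centring was not counted, so these passes have no background. Because number and passage are the same in the labels, sort and passage cannot be told apart.

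**Figure D4:**
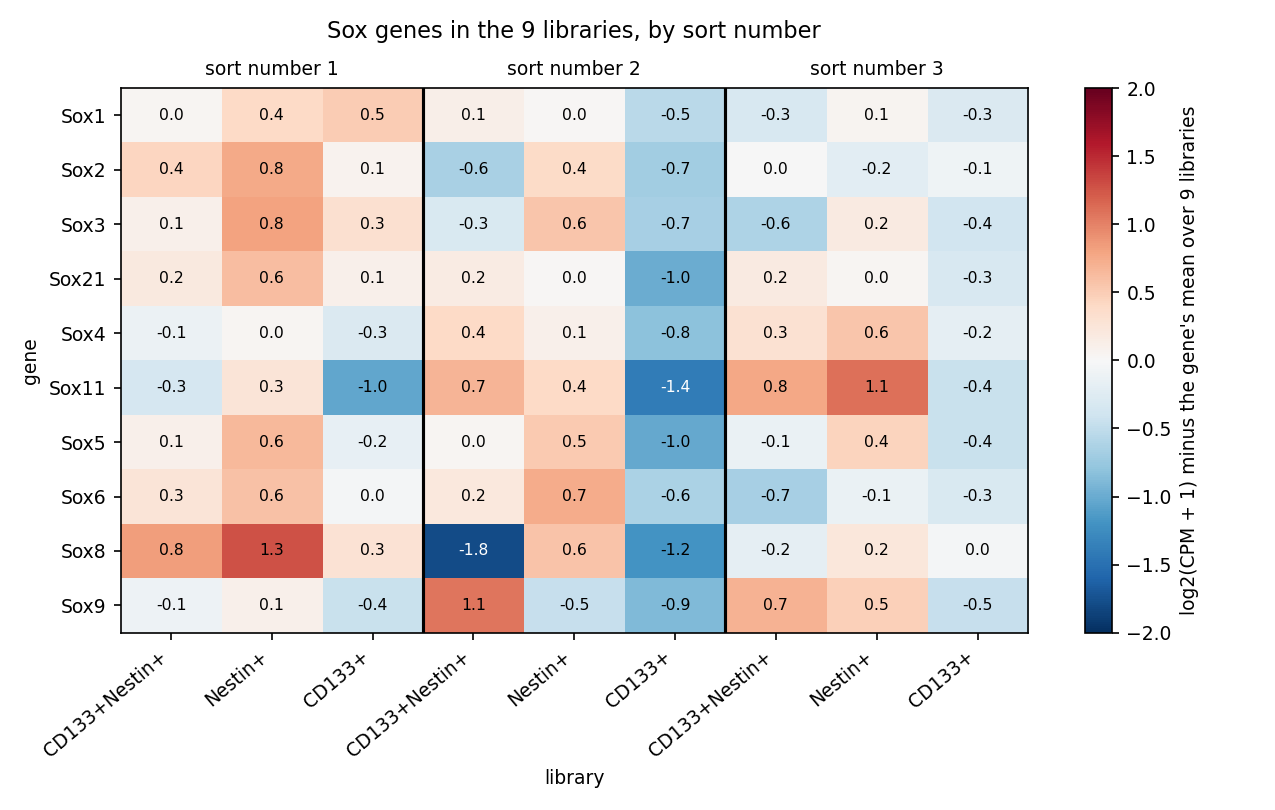
Each Sox gene's log2(CPM + 1) in the 9 libraries minus its own mean, printed in the cells and shown by colour, with libraries grouped by sort number and, within each number, ordered CD133+Nestin+, Nestin+ and CD133+. Sox8 reaches its lowest value in library 2 of CD133+Nestin+ cells, where Sox9 reaches its highest, and Sox2, Sox3, Sox21, Sox5 and Sox8 are highest in number 1 within each population.

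Of 8 other Sox genes looked for, Sox7, Sox12 and Sox13 were measured. Sox7, a SoxF factor of endothelial cells, measured 1.04, 0.0332 and 0.467 CPM in CD133+Nestin+, 2.71, 1.96 and 1.79 CPM in Nestin+ and 9.30, 7.49 and 15.1 CPM in CD133+ cells, where 0.0332 CPM is the value of 1 read in that library. It was lower in CD133+Nestin+ than in CD133+ cells (-2.94 ± 0.37, adjusted p = 0.00214, limma) and lower in Nestin+ than in CD133+ cells (-1.84 ± 0.37, adjusted p = 0.00733), and this call was lost at a pseudocount of 0.1 (-2.21, adjusted p = 0.0836). Sox12, a SoxC gene, averaged 12.2 ± 1.46, 15.4 ± 3.19 and 7.81 ± 2.45 CPM, and Sox13, a SoxD gene, averaged 14.9 ± 7.08, 8.99 ± 3.20 and 9.88 ± 0.592 CPM in CD133+Nestin+, Nestin+ and CD133+ cells (SD, n = 3 each). Neither passed in a comparison with all 9 libraries, no block and no further normalization. Sox12 was called in Nestin+ versus CD133+ cells with quantile normalization (1.09, adjusted p = 0.0472) and with the block and without library 2 of CD133+Nestin+ (0.92, adjusted p = 0.0247). These fits called 2066 and 4900 genes there, in the same order.

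Genes known as partners or targets of Sox factors in neural cells were read from lists, and the block raised their counts of calls. Of 5 partners of SOX2, the POU factors Pou3f1 (2.18 ± 0.31, adjusted p = 0.00101) and Pou3f3 (1.85 ± 0.28, adjusted p = 0.0016) were higher in Nestin+ than in CD133+ cells by limma. In this comparison 2.45% of all genes were called higher. With the block the chromatin remodeller Chd7 was higher too (1.02 ± 0.25, adjusted p = 0.0191), which made 3 of 5, when 6.06% of all genes were called higher. Between CD133+Nestin+ and CD133+ cells 0 of the 5 were called without the block, and with it Pou3f1 (adjusted p = 0.038) and Pou3f3 (adjusted p = 0.0304) were higher in CD133+Nestin+ cells. Of all genes 2.42% were called there without the block, and 1.12% were called higher with it. Without library 2 of CD133+Nestin+ the adjusted p with the block was 0.0499 for Pou3f1 and 0.0525 for Pou3f3, whose call was lost.

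In Nestin+ versus CD133+ cells 11.9% of all genes were called, and 2.45% were called higher. Of 6 described SOX2 targets 1 was called, the Notch effector Hes5, higher in Nestin+ than in CD133+ cells (3.01 ± 0.81, adjusted p = 0.0332, limma). That call was lost without library 2 or 3 of Nestin+ or 2 or 3 of CD133+ cells (adjusted p = 0.0634, 0.123, 0.167 and 0.0655). With the block 4 were higher in Nestin+ cells, Hes5, Fabp7, Nr2e1 and Shh, when 6.06% of all genes were called higher. Gfap, which encodes the intermediate filament of astrocytes, went the other way with the block and was lower both in Nestin+ (-1.73 ± 0.21, adjusted p = 0.000508) and in CD133+Nestin+ cells (-1.10 ± 0.21, adjusted p = 0.0178) than in CD133+ cells.

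The lists that follow have the same background in Nestin+ versus CD133+ cells, 11.9% of all genes called and 2.45% called higher. Of 4 described SOX4 and SOX11 targets 1 was called, Dcx, a microtubule protein of migrating neuroblasts, higher in Nestin+ than in CD133+ cells (2.91 ± 0.48, adjusted p = 0.00253, limma). The block added the neuronal tubulin gene Tubb3 (1.49 ± 0.29, adjusted p = 0.00608). Of 7 genes described with SOX9 or SOX8 in glial progenitors, the growth factor receptor gene Fgfr3 was higher in Nestin+ than in CD133+ cells (2.02 ± 0.36, adjusted p = 0.00379), and Apcdd1, a membrane inhibitor of Wnt signalling, was lower (-2.83 ± 0.46, adjusted p = 0.00247). With the block 4 of the 7 were higher, including the glutamate transporter gene Slc1a3 (1.29 ± 0.21, adjusted p = 0.00276), when 6.06% of all genes were called higher.

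Apcdd1 was also lower in CD133+Nestin+ than in CD133+ cells (-3.18 ± 0.46, adjusted p = 0.00515, limma), and with the block Fgfr3 was higher there (adjusted p = 0.0313, and 0.0489 without library 2 of CD133+Nestin+). Between CD133+Nestin+ and Nestin+ cells 0 of these 22 genes were called without the block, when 3.13% of all genes were called. With the block Dcx (-1.84, adjusted p = 0.0253) and Fgfr3 (-0.98, adjusted p = 0.033) were lower in CD133+Nestin+ cells, when 180 of 16143 genes were called lower.

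Markers of several cell types moved with the comparison of Nestin+ and CD133+ cells in which Sox11 and Sox5 were called. Of 16143 genes, 395 were called higher and 1520 lower in Nestin+ cells. Oligodendrocyte precursor markers were higher for 6 of 7 genes tested, with summed levels of 1290 to 1660 CPM in Nestin+ against 111 to 283 CPM in CD133+ cells, and markers of young neurons for 4 of 8, with 349 to 505 CPM against 203 to 212 CPM. Sox10, one of the precursor markers, was higher by 3.99 ± 0.47 (adjusted p = 0.000431, limma). Markers of microglia (8 of 8), endothelial cells (5 of 5), mural cells (6 of 6), red blood cells (5 of 5) and multiciliated ependymal cells (7 of 7) were lower in Nestin+ cells.

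Summed levels in Nestin+ against CD133+ cells were 34.2 to 96.6 against 812 to 2480 CPM for microglia, 15.4 to 25.5 against 451 to 887 CPM for endothelial cells, and 64.6 to 96.0 against 947 to 1870 CPM for mural cells. Those of red blood cells were 24.4 to 344 against 783 to 1540 CPM, and those of ependymal cells 186 to 241 against 1240 to 2480 CPM. Of 7 radial glia and astrocyte markers 1 was higher and 0 were lower in Nestin+ cells (3 higher with the block), and of 6 cell cycle genes 0 were called (2 lower with the block). No measured marker of these lists was under 3 reads in every library of a population. Their part in the Sox differences was not tested.

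Between CD133+Nestin+ and CD133+ cells the markers of microglia (8 of 8), endothelial cells (5 of 5), mural cells (6 of 6) and red blood cells (4 of 5) were lower in CD133+Nestin+ cells as well, and 1 of 7 precursor markers was higher (3 of 7 with the block). Of 16143 genes, 48 were called higher there and 342 lower (181 and 595 with the block). Summed precursor markers were 372 to 941 CPM in CD133+Nestin+, 1290 to 1660 CPM in Nestin+ and 111 to 283 CPM in CD133+ cells, with CD133+Nestin+ cells between the others without overlap, as for Sox5. Summed markers of young neurons had the same order without overlap, at 256 to 274, 349 to 505 and 203 to 212 CPM. Ependymal markers were higher in CD133+Nestin+ than in Nestin+ cells for 7 of 7 genes, with 1050 to 1410 against 186 to 241 CPM. Of 16143 genes, 464 were called higher and 41 lower in CD133+Nestin+ than in Nestin+ cells. In the same comparison 3 of 7 precursor markers, Pdgfra, Cspg4 and Sox10, were lower in CD133+Nestin+ cells (4 of 7 with the block). The Sox10 call (adjusted p = 0.0377, limma) held in 3 of the 9 fits that left out a library. Without library 2 of CD133+Nestin+ its adjusted p was 0.0545, and at a pseudocount of 0.1 it was 0.173. Of the 5 endothelial markers 1, Cldn5, was higher, with summed levels of 27.0 to 44.6 CPM in CD133+Nestin+ against 15.4 to 25.5 CPM in Nestin+ cells, and of the 6 mural markers 1, Dcn, with 95.5 to 194 against 64.6 to 96.0 CPM. Their part in the Sox values of CD133+Nestin+ cells was not tested.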

How the data were processed

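Total RNA from 9 samples, 3 per sorted population, was sequenced, per the labels. The submitters' processing notes name limma, Partek 8.0, STAR 2.5.3a and bcl2fastq as tools and mm10 as build, without their roles, and the annotation and strand setting are not given in the sources used here. The deposited table holds values that the authors normalized, whose unit was inferred as CPM from the step of 1 read (0.0286 to 0.0344 CPM) and sums of 659000 to 876000. Of values below 0.5 CPM, 24.4% to 43.8% were whole reads within 0.02 reads, so whole reads could not be recovered and a count test was not used. Any genes without reads in a library counted as whole in this share. A level of 3 reads was 0.0859 to 0.103 CPM, which covers counting error only. A second table gives the authors' p-value, false discovery rate and ratio of means per gene, per the file headers, and served only as their result.

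The filter kept 16143 genes that reached 1 CPM in 3 or more libraries and removed 2186. In limma 3.58.1 under R 4.3.3, 3 group means of log2(CPM + 1) were fitted together with empirical Bayes moderation, trended and robust, on 6 residual degrees of freedom, and contrasts and an F test were adjusted over all genes by Benjamini-Hochberg at 0.05. Intervals are at 95%. The fit was tested on simulated data, in which it missed many of the changes put in, small ones most often. Python 3.11.15 and matplotlib 3.10.9 made the descriptions and figures. Exons are from GENCODE M21 (GRCm38, the same build as mm10) and promoters from RefSeq, which matched 8 members.

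The replicate number was the sort number in the titles. Across genes, deviations of libraries from their group mean correlated at 0.204 to 0.73 in all 9 same-numbered pairs and at -0.527 to 0.314 in 18 others. Same-numbered libraries were therefore treated as paired, but only in the same-numbered differences and in fits that included the sort number. The main fit, with its SEs, calls and backgrounds, used no block and so no pairing. The titles give a shared sort number but state no pairing, so the pairing rests on that number and these correlations. Blocked values are given where they change a call.

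The members and lists were chosen with earlier results of these data known. Named were all members, the measured other Sox genes, up to 4 called genes of each list, the 2 nearest profiles (among genes with a mean of 10 CPM or more) of each member called in the F test, and Prom1 and Nes. Sox5os1, Sox1ot and Sox2ot were added for their overlap with members. Alternatives were the block, quantile normalization or median centring, a pseudocount of 0.1, a 5 CPM filter or none, no trend or robust prior, the 6 libraries compared, sort numbers 2 and 3, and leaving out each library. The block without library 2 of the CD133+Nestin+ cells, and the tests of the sort number, were added after seeing the data.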

Additional observations from a re-analysis of the deposited data

How the results depend on the processing

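Of 746 member values under an alternative, 0 reversed a called direction, 19 lost a call, 21 gained one, and 24 that were not called changed sign. In CD133+Nestin+ versus Nestin+ cells 0 members were called under every alternative run. With the replicate block, which uses the pairing by sort number, genes called went to 983 for CD133+Nestin+ versus Nestin+ (505 without it), 776 for CD133+Nestin+ versus CD133+ (390), 3094 for Nestin+ versus CD133+ (1915) and 2656 for the 3 populations (1534), and members called to 1 for CD133+Nestin+ versus CD133+ (0) and 2 for the 3 populations (1). Adding to the block the loss of library 2 of CD133+Nestin+, chosen after seeing the data, gave 1320, 809, 4900 and 4119 genes in the same order, 1 member for CD133+Nestin+ versus CD133+, 5 members for the 3 populations and 8 for Nestin+ versus CD133+, where Sox1 and Sox2 were not called. In the 3 populations 0 members were called with a pseudocount of 0.1, no filter, or no trend or robust prior, 2 with a filter of 5 CPM or median centring, and with quantile normalization Sox5 in place of Sox11. The 6 libraries alone gave 204 genes for CD133+Nestin+ versus CD133+ and could not be used for the 3 populations. Leaving out 1 library gave 173 to 663 genes for CD133+Nestin+ versus Nestin+, 97 to 472 for CD133+Nestin+ versus CD133+, 1043 to 2764 for Nestin+ versus CD133+ and 863 to 2083 for the 3 populations, and 0 to 2 members in the last 3 and 0 to 0 in the first; the lowest gene counts came without Nestin+ library 2, CD133+ library 3, CD133+ library 2 and Nestin+ library 2 in this order. The cause of these changes was not tested. With 3 libraries per population, the SE of a member's difference was 0.26 to 0.60 (log2).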
